A study of Ovis aries with 10 samples.

Results

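The genes described here are those of the unfolded protein response and the protein-folding chaperones, in the adrenal gland of fetal sheep. They were taken by symbol from the authors' deposited table of differential expression, from a fixed list of 40 symbols, and 33 of the 40 were found among its 19316 rows. XBP1, DNAJB11, HSPA8, DNAJB1, HSF1, HSPD1 and HSPE1 were not found under these symbols and were not analysed here. Each of the 33 genes had a single row, a p-value and a mean of 1 TPM or more (an RNA level scaled to the length of the transcript and the size of the library), so none was lost to a filter on low values.

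RNA was sequenced from whole adrenal glands of sheep fetuses at 102 days of gestation, with 5 libraries labelled as injected with endotoxin and 5 as injected with saline, the control group. Each group held 3 female and 2 male libraries. Endotoxin is the lipopolysaccharide of Gram-negative bacteria and provokes inflammation; its dose, the site of injection and the time to sampling are not given in the labels used here, and the series title speaks of intrauterine inflammation. The labels do not say whether each library is from a separate ewe, so the p-values measure the spread between these libraries. The authors' deposited table calls its groups A and B, and B was read as endotoxin. The libraries held 12494386 to 18324516 estimated counts, but their table carries other gene IDs that could not be paired with symbols. For that reason the values of single libraries cannot be given for these genes, and whether the libraries of the groups overlapped was not examined.

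In the endoplasmic reticulum (ER), secreted and membrane proteins are folded by chaperones and joined by disulfide bonds, and proteins that fail to fold are sent back to the cytosol to be degraded. When unfolded protein builds up, the sensors ATF6, IRE1 (encoded by ERN1) and PERK (encoded by EIF2AK3) start the unfolded protein response, which raises ER chaperones, slows translation and, through the transcription factor ATF4, raises genes of amino acid supply. The heat shock response serves the cytosol in a similar way under the transcription factor HSF1. Steroid-producing cells of the adrenal cortex hold much ER membrane, in which several steroidogenic enzymes reside. These roles are known mainly from human and mouse cells.

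Of the 33 genes, 1 rose with endotoxin, none fell and 32 did not pass an adjusted p of 0.05 in the authors' model. The gene that rose was SDF2L1, a small ER protein that works with the chaperone BiP. Over all 19236 rows with a p the same threshold was passed by 1.72%, upward by 1.29% and downward by 0.426%, against 3.03% of these 33 genes, which is a single gene. At an unadjusted p under 0.05 there were 5 genes, all higher with endotoxin and equal to 15.2% of the 33, where 9.37% of rows averaging at least 1 TPM were higher and 6.22% lower at that level. These were SDF2L1, CRELD2, MANF, CHAC1 and BAG3. The log2 fold change of the authors' model was positive in 28 of the 33 genes, with a median of 0.21, against 51.7% of rows averaging at least 1 TPM and a median there of 0.01. On the TPM scale, where the median of those rows was -0.10, 23 of the 33 genes were higher with endotoxin, with a median of 0.08, against 34.0% of those rows. DDIT3, DNAJB9, PDIA4, HSP90AA1 and HSP90AB1 were the genes that were positive on the model scale and lower in mean TPM.

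**Figure D1:**
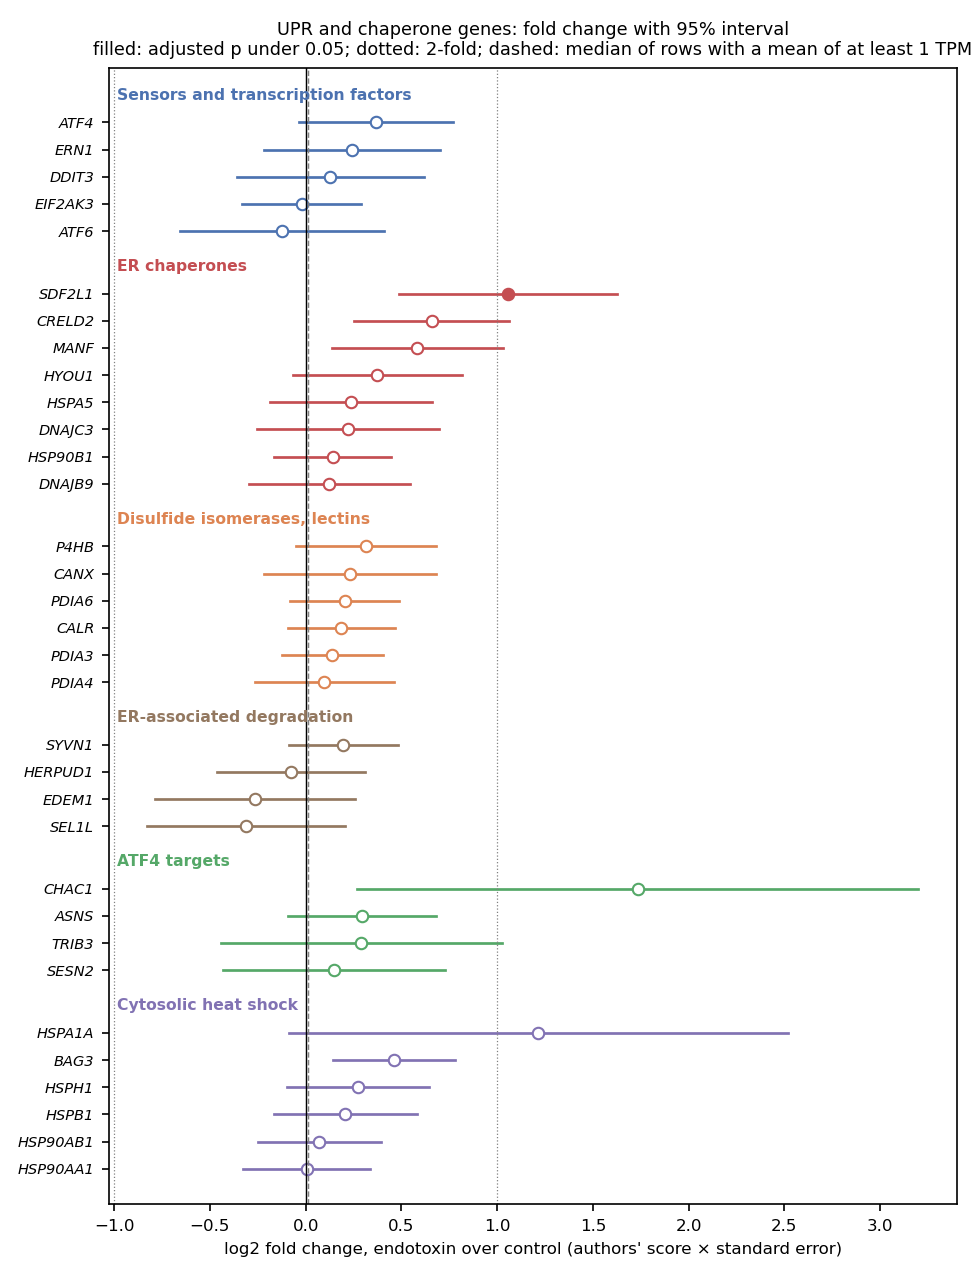
Log2 fold change of each of the 33 genes, endotoxin over control, with the 95% interval computed from the authors' standard error, grouped by role; the filled point passed an adjusted p of 0.05. SDF2L1 is the filled point at 1.05, and CHAC1 and HSPA1A carry the widest intervals.

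The standard errors allowed moderate changes to be bounded. A 95% interval was computed from each standard error. In 27 of the 33 genes it lay inside a 2-fold change in either direction. The same held for a like share of rows averaging at least 1 TPM, 11722 of 14348. The intervals of SDF2L1, CRELD2, MANF, TRIB3, CHAC1 and HSPA1A reached 2-fold or more upward, as did those of 1510 of the 14348 rows.

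The sensors of ER stress were expressed at lower levels than ATF4, a transcription factor downstream. Mean levels in the authors' deposited table were 4.73 TPM with endotoxin and 5.64 TPM in controls for ATF6, the sensor that is cleaved to become a transcription factor. For ERN1 the means were 2.08 TPM with endotoxin and 1.92 TPM in controls, the lowest of the 33 genes in both groups of the authors' deposited table. EIF2AK3, the kinase that slows translation, averaged 5.49 TPM with endotoxin and 6.17 TPM in controls (authors' deposited table). None of the 3 sensors passed the test, with log2 fold changes of -0.12 for ATF6, 0.24 for ERN1 and -0.02 for EIF2AK3. ERN1 had an adjusted p of 0.779 in the authors' deposited table, with a standard error of 0.23. ATF4, whose protein is translated more when PERK is active, averaged 261 TPM with endotoxin and 218 TPM in controls (authors' deposited table). Its log2 fold change was 0.37 ± 0.20 (SE; adjusted p = 0.449 per the authors' deposited table), so its mean was higher without passing the test. DDIT3, which encodes the pro-apoptotic factor CHOP, averaged 13.8 TPM in endotoxin libraries and 13.8 TPM in control libraries (authors' deposited table). The model put DDIT3 at 1.09-fold, with a 95% interval of 0.780 to 1.53. The median over the 5 measured genes of this role was 0.13 in the model and -0.0028 on the TPM scale. On the TPM scale 3 of the 5, ATF6, EIF2AK3 and DDIT3, were lower with endotoxin. In the sheep reference gene table, which is of another build than the authors', 13 of the 33 genes overlap another gene: ATF6, ERN1, ATF4, DDIT3, HYOU1, PDIA3, PDIA6, CANX, SYVN1, SESN2, HSPA1A, HSPH1 and BAG3. Only the spans of the genes were compared, without strand or exons, and for SESN2 and BAG3 the overlapping gene is a tRNA gene. Whether any of these shares reads with its overlapping gene, such as DDIT3 with MARS1, was not examined.

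The ER chaperones and their partners held the gene that rose and the next-largest differences of the ER group. SDF2L1 averaged 4.78 TPM with endotoxin and 2.44 TPM in controls (authors' deposited table). Its log2 fold change was 1.05 ± 0.29 (SE; adjusted p = 0.0236 per the authors' deposited table), or 2.08-fold with a 95% interval of 1.40 to 3.08. By its unadjusted p SDF2L1 ranked 225 among the 19236 rows with a p. It was also the least abundant of the 8 measured ER chaperones and partners in both groups. CRELD2, a protein of the ER that is also secreted, averaged 48.8 TPM with endotoxin and 33.4 TPM in controls (authors' deposited table). The difference was 0.66 ± 0.21 on the log2 scale (SE; adjusted p = 0.0676 per the authors' deposited table), which missed the threshold of 0.05. MANF, a secreted ER protein that binds BiP, averaged 267 TPM with endotoxin and 193 TPM in controls (authors' deposited table). For MANF the model gave 1.5-fold with a 95% interval of 1.10 to 2.04, and an adjusted p of 0.192 in the authors' deposited table. SDF2L1, CRELD2 and MANF are known in human or mouse cells as genes induced by ER stress. The unfolded protein response also raises ER chaperones that had smaller values here, such as HSPA5 at 0.23 and DNAJB9 at 0.12 on the log2 scale. Whether ER stress took part was not tested.

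The large ER chaperones differed less. HSPA5, which encodes BiP, the main ER chaperone of the HSP70 family, averaged 137 TPM with endotoxin and 128 TPM in controls (authors' deposited table). The model put HSPA5 at 1.18-fold, with a 95% interval of 0.878 to 1.58 that covers no difference and stops short of 2-fold. HSP90B1, the ER member of the HSP90 family, averaged 121 TPM in endotoxin libraries and 121 TPM in control libraries (authors' deposited table). HYOU1, which exchanges the nucleotide on BiP, averaged 16.6 TPM with endotoxin and 13.96 TPM in controls (authors' deposited table). The J-domain co-chaperones of BiP also had intervals that cover no difference and stop short of 2-fold. DNAJC3 averaged 14.5 TPM with endotoxin and 13.7 TPM in controls, and DNAJB9 39.4 TPM with endotoxin and 39.7 TPM in controls, per the authors' deposited table. All 8 genes of this role had a positive log2 fold change, between 0.12 and 1.05 with a median of 0.30, and DNAJB9 was the exception that was lower in mean TPM. Their summed level was 649 TPM with endotoxin and 546 TPM in controls.

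**Figure D2:**
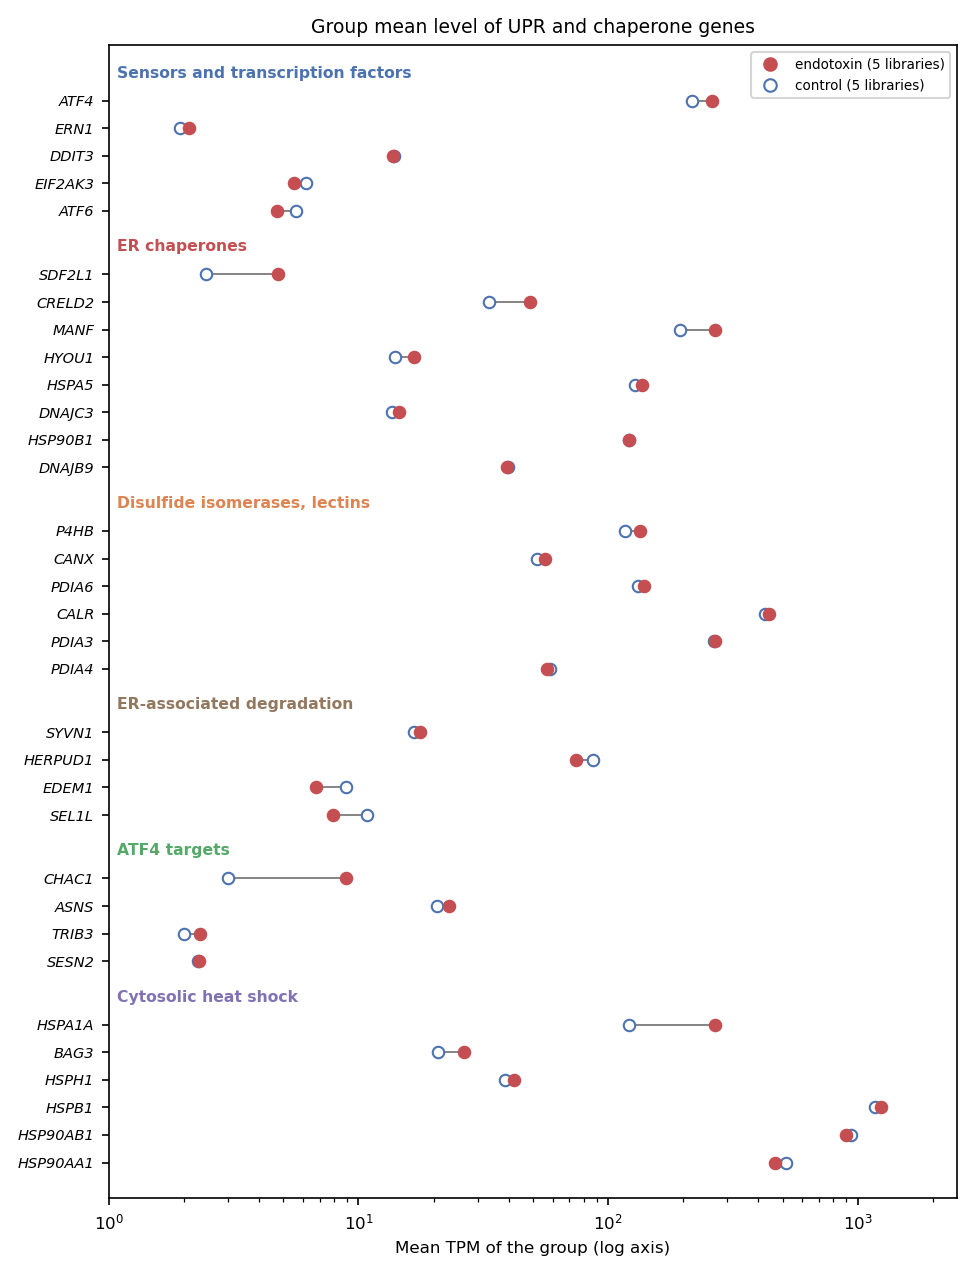
Mean TPM of each of the 33 genes in the endotoxin group (filled) and the control group (open), from the authors' deposited table, on a log axis and grouped by role. The pairs lie furthest apart for CHAC1, HSPA1A and SDF2L1, and close together for most of the abundant chaperones.

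The disulfide isomerases and the lectin chaperones were abundant and did not pass the test. P4HB, a protein disulfide isomerase, averaged 134 TPM with endotoxin and 117 TPM in controls (authors' deposited table). Its log2 fold change was 0.31 ± 0.19 (SE; adjusted p = 0.500 per the authors' deposited table). PDIA6, an isomerase that also attenuates the ER stress sensors, averaged 139 TPM with endotoxin and 132 TPM in controls (authors' deposited table). At 0.20 ± 0.15 on the log2 scale (SE; adjusted p = 0.626 per the authors' deposited table) it too missed the threshold. PDIA3, which works with the lectin chaperones on glycoproteins, averaged 269 TPM with endotoxin and 266 TPM in controls (authors' deposited table). PDIA4 was at 57.1 TPM with endotoxin and 58.6 TPM in controls (authors' deposited table). The lectin chaperone CALR, calreticulin, averaged 442 TPM with endotoxin and 427 TPM in controls, and CANX, calnexin, 56.0 TPM with endotoxin and 51.9 TPM in controls, per the authors' deposited table. All 6 log2 fold changes were positive, in a narrow range of 0.10 to 0.31 with a median of 0.19, and none of the 6 reached an unadjusted p of 0.05 in the authors' model. For each of the 6 the 95% interval lay inside a 2-fold change, and PDIA4 was the gene of this role that was lower in mean TPM.

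Of the 4 genes of ER-associated degradation, 3 were lower with endotoxin both in the model and in mean TPM, without passing the test. SEL1L, the adaptor of the ER ubiquitin ligase, averaged 7.94 TPM with endotoxin and 10.8 TPM in controls (authors' deposited table). Its log2 fold change was -0.31 ± 0.26 (SE; adjusted p = 0.721 per the authors' deposited table). SYVN1, the ligase that SEL1L binds, averaged 17.6 TPM with endotoxin and 16.7 TPM in controls (authors' deposited table). The value for SYVN1 was 0.20 ± 0.15 (SE; adjusted p = 0.639 per the authors' deposited table). These partners of the same complex thus had values of opposite sign, each with a 95% interval that covers no difference. EDEM1, which marks misfolded glycoproteins for removal, averaged 6.77 TPM with endotoxin and 8.93 TPM in controls (authors' deposited table). HERPUD1, a scaffold of the complex, averaged 74.4 TPM with endotoxin and 86.6 TPM in controls (authors' deposited table). The median log2 fold change of the 4 genes was -0.17 in the model and -0.29 on the TPM scale, and none reached an unadjusted p of 0.05.

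The ATF4 targets held the largest fold change of the 33 genes and also the largest error. CHAC1, an enzyme that breaks down glutathione, averaged 8.88 TPM with endotoxin and 3.0 TPM in controls (authors' deposited table). The log2 fold change of CHAC1 was 1.73 ± 0.75 (SE; adjusted p = 0.258 per the authors' deposited table), or 3.33-fold with a 95% interval of 1.20 to 9.19. ASNS, asparagine synthetase, averaged 23.1 TPM with endotoxin and 20.7 TPM in controls (authors' deposited table). At 0.29 ± 0.20 (SE; adjusted p = 0.579 per the authors' deposited table), ASNS did not pass. The pseudokinase TRIB3, which restrains AKT and ATF4, averaged 2.32 TPM with endotoxin and 1.99 TPM in controls (authors' deposited table). SESN2, a leucine sensor that restrains mTORC1, averaged 2.29 TPM with endotoxin and 2.28 TPM in controls (authors' deposited table). All 4 were positive, with a median of 0.29, and without CHAC1 the median was also 0.29.

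The cytosolic heat shock genes ranged from the most abundant of the 33 to moderate levels, and HSPA1A had both the largest difference and the largest error of this role. HSPA1A, the stress-inducible HSP70, averaged 269 TPM with endotoxin and 121 TPM in controls (authors' deposited table). Its log2 fold change was 1.21 ± 0.66 (SE; adjusted p = 0.441 per the authors' deposited table), and the 95% interval of 0.941 to 5.72-fold covered no difference. Close relatives of HSPA1A share sequence with it, so the division of reads among them is uncertain. HSPA1L, which overlaps it in the sheep reference gene table, was at 4.33 TPM with endotoxin and 4.41 TPM in controls (authors' deposited table). BAG3, a co-chaperone that links HSP70 to autophagy, averaged 26.4 TPM with endotoxin and 20.8 TPM in controls (authors' deposited table). With a smaller difference than HSPA1A but a smaller error, BAG3 was at 0.46 ± 0.16 (SE; adjusted p = 0.123 per the authors' deposited table). The interval for BAG3 was 1.10 to 1.72-fold.

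The other heat shock genes had intervals that cover no difference and stop short of 2-fold. HSPB1, a small heat shock protein, was the most abundant of the 33, at 1242 TPM with endotoxin and 1172 TPM in controls (authors' deposited table). The cytosolic HSP90 genes followed, with HSP90AB1 at 896 TPM with endotoxin and 944 TPM in controls (authors' deposited table). HSP90AA1 averaged 468 TPM with endotoxin and 516 TPM in controls in the authors' deposited table, and the model put it at 1.004-fold with a 95% interval of 0.798 to 1.26. HSPH1, a nucleotide exchange factor of HSP70, averaged 41.9 TPM with endotoxin and 38.8 TPM in controls (authors' deposited table). The median over the 6 measured heat shock genes, HSPA1A and BAG3 included, was 0.24, and 0.21 without HSPA1A. Their summed level was 2944 TPM with endotoxin and 2813 TPM in controls. The difference in HSPA1A alone, 269 TPM against 121 TPM, was larger than that of the sum.

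**Figure D3:**
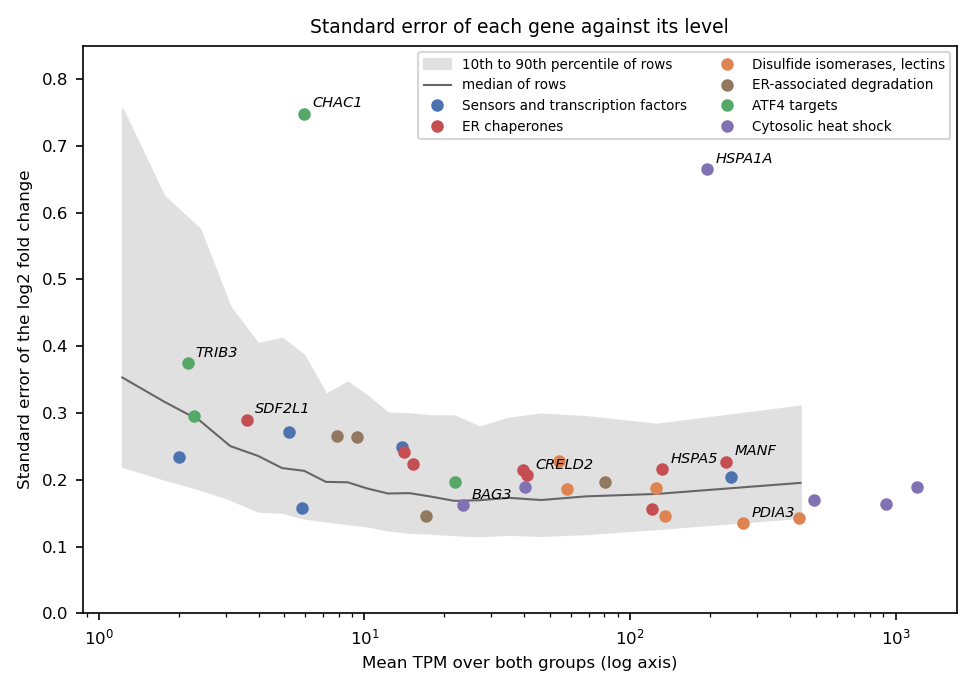
Standard error of the log2 fold change against mean TPM for each of the 33 genes, coloured by role, over the median (line) and the 10th to 90th percentile (band) of rows averaging at least 1 TPM, in bins of like level. CHAC1 at 0.75 and HSPA1A at 0.66 lie above the band, and the other 31 genes lie at 0.37 or below.

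The errors separated CHAC1 and HSPA1A from the rest. Of all rows with a p that averaged at least 1 TPM, 1.98% had a standard error at least as large as that of CHAC1, and 2.66% at least as large as that of HSPA1A. The median standard error of the 33 genes was 0.21, against 0.20 over those rows. Because the authors' deposited table holds no values of single libraries, whether 1 library or several carried the higher mean of CHAC1 or HSPA1A was not examined. The order of the genes by level was otherwise alike in the groups. The 4 most abundant genes, HSPB1, HSP90AB1, HSP90AA1 and CALR, held the same ranks in both, and HSPA1A was 5th with endotoxin and 10th in controls.

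Wider lists of the same pathways held 186 further symbols, of which 147 were found. Of these 2 rose, 145 did not pass and none fell. The 2 that rose are 1.36% of the 147, near the 1.29% over all rows with a p. At an unadjusted p under 0.05, 25 were higher, or 17.0% against 9.37% of rows averaging at least 1 TPM, and 1 was lower, where 6.22% of those rows were. Their median log2 fold change was 0.09 in the authors' model, with 68.7% positive against 51.7% of those rows. On the TPM scale the median was -0.04, with 43.5% positive against 34.0%. The medians of the wider lists of ER translocation, ER-associated degradation and cytosolic heat shock were positive in the model and turned to -0.04, -0.05 and -0.06 on the TPM scale, which lie above the median of -0.10 for rows averaging at least 1 TPM. Those of ER sensing and translation control and of ER folding and oxidation were near 0 in the model and lay below that median on the TPM scale, at -0.12 and -0.13.

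**Figure D4:**
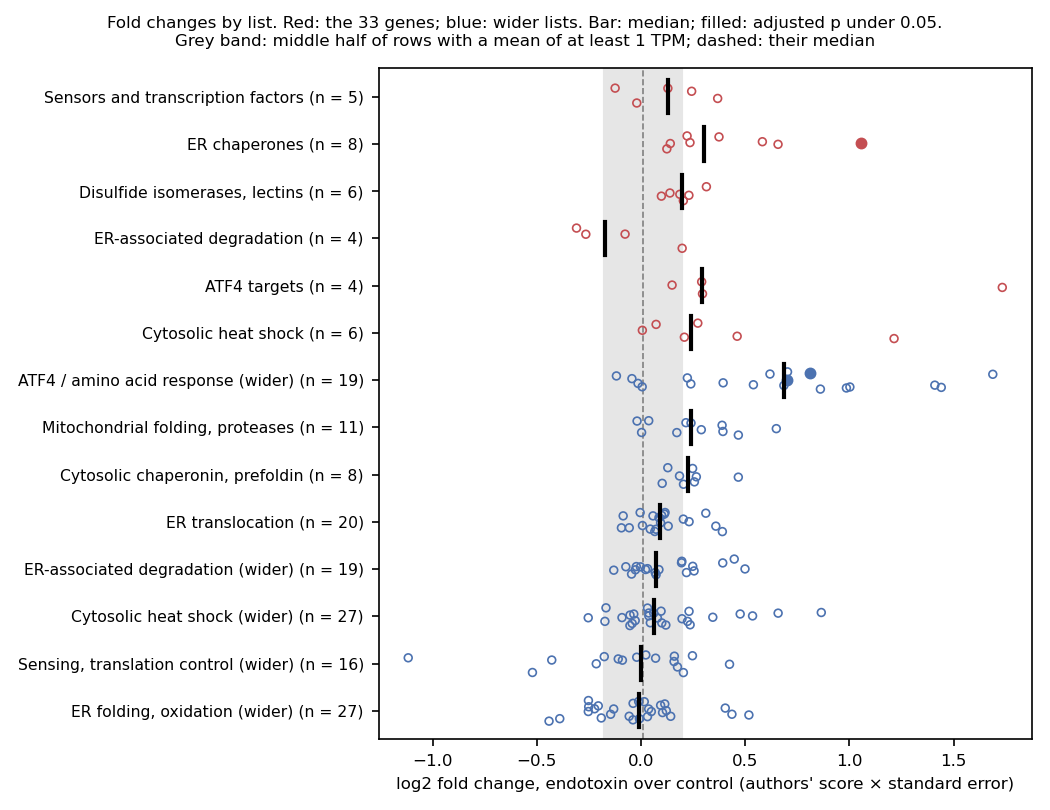
Log2 fold change of every measured gene by list, endotoxin over control, with the median of each list as a bar, beside the median (dashed) and interquartile range (band) of rows averaging at least 1 TPM. The wider ATF4 list has the highest median at 0.69, and the wider ER folding list lies at -0.01. Of the 19 genes of the wider ATF4 list, 4 average under 1 TPM.

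Both wider-list genes that rose belong to the list of ATF4 and the amino acid response. DDIT4, an inhibitor of mTORC1 that is also known to be induced by glucocorticoids and hypoxia, averaged 156 TPM with endotoxin and 97.0 TPM in controls (authors' deposited table). The change in DDIT4 was 0.81 ± 0.20 (SE; adjusted p = 0.00604 per the authors' deposited table). SHMT2, which makes glycine from serine in mitochondria, averaged 31.6 TPM with endotoxin and 20.7 TPM in controls (authors' deposited table). SHMT2 rose by 0.70 ± 0.20 on the log2 scale (SE; adjusted p = 0.0370 per the authors' deposited table). This list named 29 symbols, of which 19 were measured. Its aminoacyl-tRNA synthetase genes, such as AARS1 and GARS1, were not found. Of the 19 measured genes 16 were positive, with a median of 0.69 in the authors' model and 0.23 on the TPM scale. The other 3, SLC38A2, VLDLR and GPT2, were negative in the model. Among the 19, 4 had a mean under 1 TPM: SLC7A11, GDF15, FGF21 and STC2. Each of these 4 lay above the list median in the model, so they raise that median. The 3 serine synthesis enzymes of the list, PHGDH, PSAT1 and PSPH, were picked out after values were seen, and none passed. PHGDH averaged 32.0 TPM with endotoxin and 23.4 TPM in controls in the authors' deposited table (1.45-fold in the model, adjusted p = 0.478). PSAT1 averaged 24.1 TPM with endotoxin and 9.50 TPM in controls in the authors' deposited table (2.66-fold, adjusted p = 0.404). PSPH averaged 10.5 TPM with endotoxin and 3.32 TPM in controls in the authors' deposited table (3.22-fold, adjusted p = 0.332).

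The other wider lists held no gene past the threshold. In the wider list of ER-associated degradation, with 19 measured genes and a median of 0.07, UFD1 came nearest. UFD1 is part of the complex that pulls proteins out of the ER membrane, and it averaged 141 TPM with endotoxin and 106 TPM in controls in the authors' deposited table (log2 fold change 0.50 ± 0.15 SE, adjusted p = 0.0506). Among 11 genes of mitochondrial folding and proteolysis the median was 0.24, and 10 were positive in the model and 8 on the TPM scale. Their smallest p belonged to GRPEL1, a partner of mitochondrial HSP70, at 14.9 TPM with endotoxin and 11.7 TPM in controls in the authors' deposited table (0.47 ± 0.14 SE, adjusted p = 0.0537). When p-values were adjusted only over rows averaging at least 1 TPM, UFD1, GRPEL1 and the ubiquitin-conjugating enzyme gene UBE2J2 passed as well. All 8 measured genes of the cytosolic chaperonin and prefoldin were positive in the model, with a median of 0.23, and 6 were positive on the TPM scale; PFDN6 came nearest at an adjusted p of 0.239 per the authors' deposited table.

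In the wider heat shock list of 27 genes the median was 0.06, and HSF4, a heat shock factor best known from the lens, averaged 3.0 TPM with endotoxin and 1.72 TPM in controls in the authors' deposited table (0.87 ± 0.28 SE, adjusted p = 0.0744). ER translocation genes had a median of 0.09 over 20 genes, with SEC61A1, the pore of the translocon, nearest to the threshold at an adjusted p of 0.19 per the authors' deposited table. The wider list of ER folding and oxidation had a median of -0.01 over 27 genes, with 12 positive, and DNAJC1, a co-chaperone of BiP, came nearest at an adjusted p of 0.110 per the authors' deposited table. Among genes of ER sensing and translation control the median was 0.00 over 16 genes, 8 of them positive, and none reached an unadjusted p of 0.05. CREB3L2, an ER-bound transcription factor, had its smallest p, at 10.5 TPM with endotoxin and 15.6 TPM in controls in the authors' deposited table (-0.43 ± 0.25 SE, adjusted p = 0.470). ATF3, a stress transcription factor downstream of ATF4, was picked out after its values were seen and averaged 12.7 TPM with endotoxin and 30.2 TPM in controls (authors' deposited table). The error of ATF3 was as wide as that of CHAC1, at -1.12 ± 0.77 (SE; adjusted p = 0.595 per the authors' deposited table). SDF2L1, the gene of the 33 that rose, was not listed among the changed genes of any of the 95 pathway categories in the authors' deposited table of enrichment. The other 32 were not listed either, which adds nothing, because they had not passed the threshold.

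Markers of the cell types in the gland differed between the groups, and in bulk tissue fewer cells of a type and less RNA per cell cannot be told apart. Of 8 cortex markers 6 rose, with a summed level of 6765 TPM with endotoxin and 2679 TPM in controls. Among neutrophil markers 5 of the 7 found rose, and their sum was 1912 TPM with endotoxin and 47.1 TPM in controls. Summed chromaffin markers, 6 of 8 found, were at 8510 TPM with endotoxin and 8998 TPM in controls, and none passed. Of the macrophage markers 1 of the 7 found rose (186 TPM summed with endotoxin, 138 TPM in controls). Of 8 markers of B cells and of plasma cells, the latter with an active unfolded protein response, 6 were found and none passed. Their sum was 11.01 TPM with endotoxin and 9.45 TPM in controls, without SDC1 and TNFRSF17, which were not found. Most of that sum was JCHAIN, at 8.74 TPM with endotoxin and 7.54 TPM in controls, and 5 of the 6 averaged under 1 TPM. Fibroblast markers, 5 of 6 found, summed to 1000 TPM with endotoxin and 1576 TPM in controls, and none passed. Endothelial, T cell and erythroid markers summed to 140, 12.2 and 54.3 TPM with endotoxin, against 128, 14.7 and 33.1 TPM in controls, with 1 erythroid marker past the threshold. Of the 5 cell cycle markers found 3 fell. No marker found was at 0 in either group, and the part of these cell types in the values of SDF2L1 or of any other gene above was not tested.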

How the data were processed

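Total RNA from 10 fetal sheep adrenals went into libraries made with a directional kit, per the labels' protocols. Tools listed in the submitters' processing notes, without a role, are Salmon 0.9.1, fastp 0.19.4 and DESeq2 (version not given), with Oar_v3.1 as the build. Per the file headers, the authors' comparison table gives group mean TPM, log2 values, the standard error, a test score and p-values before and after adjustment. The authors' log2 column equals the log2 ratio of mean TPM plus 1 in all 19316 rows. Fold changes given here were computed instead as the product of the authors' score and standard error, and 95% intervals are that value ± 1.96 standard errors; SE marks the authors' standard error. The score was read as a Wald score, since its two-sided normal p equals the deposited p in 19236 rows; the other 80 have p set to 1 and were treated as untested. The deposited adjusted p equals Benjamini-Hochberg over those 19236 rows.

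The deposited table names its groups A and B. B was read as endotoxin from the series title, and every direction would turn if that were wrong. In the labelled TPM table the authors deposited, 16 genes were at least 8-fold higher and 3 lower with endotoxin, against 19 higher and 3 lower in B. The counts of higher genes differ between these tables, and the reason was not examined. The deposited estimated counts per library gave the depths. Their 20781 gene IDs have a form used for cattle, 0 of them were in the sheep RefSeq gene table (ARS-UI_Ramb_v3.0), and names were not matched by value, so the planned edgeR test per library was not made. Coordinates are not given because the builds differ.

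The genes and lists were chosen with earlier results of these data known. Full statistics are given for genes past an adjusted p of 0.05 and the 2 smallest p of each role, and from each wider list for genes past the threshold or otherwise the smallest p. Intervals of HSPA5, DDIT3, MANF, HSP90AA1, PHGDH, PSAT1 and PSPH were added after values were seen. So were the values of HSPA1L and HSPA6 as relatives of HSPA1A. The adjustment was tested on simulated scores. Python 3.11.15, pandas 2.3.3 and scipy 1.17.1 were used.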

Additional observations from a re-analysis of the deposited data

How the results depend on the processing

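Of 226 values recomputed under other settings, 212 stayed on the same side of the threshold, within 1.5 times of a count, or within the median standard error of a role's genes. Among these, the median of the sensors and transcription factors was -0.0028 on the TPM scale, against 0.13 on the model scale. Part of the 212 could not have moved, so the tally is no measure of robustness. Each of the 33 genes has a single row and a mean of at least 1 TPM. A choice between rows or a filter at 1 TPM therefore left them unchanged. The deposited adjustment already runs over every row with a p, so repeating it changed nothing. At an adjusted p of 0.1, 2 of the 33 genes rose in place of 1, both among the 8 ER chaperones, where the count was also 2 (SDF2L1 and CRELD2). At that threshold the wider lists held 9 genes that rose in place of 2, with 3 in ER-associated degradation, 1 in cytosolic heat shock and 2 in mitochondrial folding. With p-values adjusted over the 14348 rows with a p and a mean of at least 1 TPM the wider lists held 5, with 2 in ER-associated degradation and 1 in mitochondrial folding, and the count for the 33 genes stayed at 1. These changes follow from the looser threshold or the smaller number of rows adjusted over. On the TPM scale the sign turned for DDIT3 (-0.0028), DNAJB9 (-0.010), PDIA4 (-0.037), HSP90AA1 (-0.14) and HSP90AB1 (-0.076), none of which passed the test. The cause was not tested. A centring of the TPM scale was added after seeing the data and moved no median by more than the genes' standard error. The share of at least 8-fold changes that were higher with endotoxin, 84.2% in the labelled TPM table, lay between 76.2% and 94.1% when 1 library was left out. No paired analysis was possible because the genes have no value per library. For the same reason the other fits per library (DESeq2, no filter, sex as a covariate, the replicate block and leaving out each library) were not run for these genes.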
